A study of Mus musculus with 25 samples.

Results

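The interferon regulatory factors (IRFs) examined here are the 8 genes Irf1, Irf2, Irf3, Irf4, Irf5, Irf7, Irf8 and Irf9. They were found by symbol in every library's table of gene expression, 8 of the 22985 symbols kept, and all 8 were measured in all 25 libraries. Expression is given as FPKM, a fragment count divided by transcript length and by depth, a scale on which levels of different genes can be set side by side. All 8 passed the filter on low values (at least 1 FPKM in at least 2 libraries) that left 11532 symbols for testing. In the tables, on mm9, the gene loci are Irf1 at chr11:53583516-53591876, Irf2 at chr8:47825099-47932812, Irf3 at chr7:52253018-52258218, Irf4 at chr13:30841127-30858796, Irf5 at chr6:29476625-29487320, Irf7 at chr7:148449082-148452323, Irf8 at chr8:123260276-123280592, Irf9 at chr14:56222822-56228867, Rela at chr19:5637490-5648130, Rel at chr11:23641729-23670970 and Foxp3 at chrX:7156802-7172369. No locus of another symbol overlaps those of the 8 members.

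IRFs are transcription factors that share a DNA-binding domain and bind interferon-stimulated response elements (ISREs) and related sites. Irf3 and Irf7 are switched on by phosphorylation, downstream of sensors of nucleic acid, and turn on type I interferon genes; Irf9 is the DNA-binding subunit of a complex with Stat2 that carries the signal of those interferons to the nucleus. Irf1 is induced by interferon-gamma and by NF-kB, and Irf2 binds many of the same sites and can oppose it. Irf4 and Irf8 are restricted largely to blood cells and bind DNA weakly on their own, so that they act with partners such as Batf and Jun proteins or Ets factors. In T cells, antigen receptor signals induce Irf4 in a graded manner, and regulatory T cells need Irf4 for their effector forms.

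The libraries came from T cells of C57BL/6 mouse spleen and lymph node, and 21 of them fall into 10 groups. DKO Treg are regulatory T cells (Treg) labelled as lacking both p65 and c-Rel, the NF-kB subunits encoded by Rela and Rel; c-RelKO Treg and p65KO Treg lack 1 subunit each, and WT denotes wild type. Conventional T cells (Tconv) were WT only. After 3 h with 2 µg/ml of antibodies to CD3 and CD28, given together with IL-2, there were 2 libraries of DKO Treg, 1 of c-RelKO Treg, 1 of p65KO Treg, 2 of WT Treg and 2 of WT Tconv; without stimulation there were 2 of DKO Treg, 2 of c-RelKO Treg, 3 of p65KO Treg, 4 of WT Treg and 2 of WT Tconv. A further 4 stimulated libraries of 1 per group form a set built on TAT-Cre, a recombinase that enters cells: Treg labelled NFkB del, Treg labelled FoxP3 del, and no-deletion controls of WT Treg and WT Tconv. The sources used here name neither the alleles nor a promoter that drives the deletions, nor whether animals were pooled.

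Several libraries stood apart, and this bears on the results. Library numbers in the labels form runs (1 to 2, 6 to 7, 10 to 16, 21 to 30, and 31 to 34 for the TAT-Cre set), which the labels do not call batches, with 15.4 to 52.8 M fragments (M, 1e6) implied for each library. Rel was 1.76 to 2.23 FPKM in the libraries labelled c-RelKO or DKO and 27.5 to 298 FPKM in WT Treg, whereas Rela was 56.3 to 107 FPKM in libraries labelled p65KO or DKO and 64.9 to 130 FPKM in WT Treg, so gene-level values do not check the loss of p65. Foxp3, the defining factor of Treg, was 6.34 to 21.2 FPKM in DKO Treg, against 129 to 351 FPKM in WT Treg and 0.542 to 0.927 FPKM in WT Tconv. The library labelled as resting p65KO Treg replicate 3 had 178 FPKM of the early activation gene Egr1 and 336 FPKM of the neutrophil gene S100a8, while the library labelled as stimulated p65KO Treg had 29.5 FPKM of Egr1, in the range of resting WT Treg (28.9 to 59.0 FPKM); the differences of resting p65KO Treg that are described are therefore also given without replicate 3. c-RelKO Treg replicate 2 had summed marker levels of 18167 FPKM for erythroid cells, 1818 FPKM for myeloid cells and 268 FPKM for B cells, the highest of all libraries. WT Treg replicate 1 had 129 FPKM of Foxp3 and 27.5 FPKM of Rel, the lowest among WT Treg. Foxp3 was also 266 FPKM in the TAT-Cre library labelled FoxP3 del, against 86.7 FPKM in the WT Treg control.

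The promoters of the members on which the results turn are shown first, since Irf1, Irf4 and Irf8 changed with stimulation or with loss of NF-kB subunits and Irf2 varied least. Each window runs from 250 bases before to 50 bases after the annotated start (RefSeq, GRCm38.p6, plus strand) and is written 5′ to 3′; capitals mark matches to the ISRE (GAAA and GAAA with 2 bases of any kind between), the Stat-type GAS letters TTCNNNGAA, or the kappaB consensus of NF-kB, searched on both strands.
Irf1 (chr11:53769764-53770063): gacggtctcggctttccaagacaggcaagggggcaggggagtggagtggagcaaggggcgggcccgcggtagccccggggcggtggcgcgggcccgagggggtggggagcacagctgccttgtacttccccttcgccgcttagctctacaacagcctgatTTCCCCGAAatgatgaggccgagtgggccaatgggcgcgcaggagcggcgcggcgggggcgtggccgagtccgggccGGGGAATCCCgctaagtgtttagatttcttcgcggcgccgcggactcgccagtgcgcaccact
Irf2 (chr8:46739495-46739794): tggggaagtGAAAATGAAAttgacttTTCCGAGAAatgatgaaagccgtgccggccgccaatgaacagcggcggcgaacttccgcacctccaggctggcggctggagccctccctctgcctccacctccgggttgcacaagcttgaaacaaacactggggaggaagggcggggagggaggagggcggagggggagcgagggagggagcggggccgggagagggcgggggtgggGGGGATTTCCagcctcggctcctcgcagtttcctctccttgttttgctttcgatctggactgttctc
Irf4 (chr13:30748983-30749282): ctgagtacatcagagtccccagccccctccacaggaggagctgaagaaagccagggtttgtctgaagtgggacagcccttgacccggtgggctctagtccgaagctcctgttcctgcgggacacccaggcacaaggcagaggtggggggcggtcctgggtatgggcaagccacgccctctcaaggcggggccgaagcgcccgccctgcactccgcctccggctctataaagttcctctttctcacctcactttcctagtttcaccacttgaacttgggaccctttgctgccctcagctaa
Irf8 (chr8:120736108-120736407): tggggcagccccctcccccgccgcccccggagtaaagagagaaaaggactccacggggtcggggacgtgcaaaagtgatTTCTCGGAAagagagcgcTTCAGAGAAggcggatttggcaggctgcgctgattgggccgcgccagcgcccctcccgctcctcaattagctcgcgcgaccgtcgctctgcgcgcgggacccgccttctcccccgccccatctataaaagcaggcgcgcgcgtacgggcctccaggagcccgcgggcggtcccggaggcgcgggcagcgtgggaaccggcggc
The Irf1 window holds the GAS letters TTCCCCGAA at bases 161 to 169 and the kappaB letters GGGGAATCCC at bases 238 to 247, which read as a match on both strands. The Irf2 window holds 1 match of each kind, ISRE GAAAATGAAA, GAS TTCCGAGAA and kappaB GGGGATTTCC. The Irf8 window holds 2 GAS matches, TTCTCGGAA and TTCAGAGAA, and no kappaB match, and the Irf4 window holds none of the 3 motifs. No 2 of these matches overlap. The 8 members have 11 such windows in the table, and those of Irf3, Irf5, Irf7 and Irf9 and a further window each of Irf1 and Irf8 held no match. Among all 32851 promoter windows of this length, 3.44% hold the ISRE letters, 8.30% the GAS letters and 8.46% the kappaB consensus. A match describes letters in these windows and is no measure of binding.

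Irf8 and Irf4 varied most among the 8 members, and Irf1 was the most abundant. Averaged over the 21 libraries of the 10 groups, Irf1 was at 257 FPKM, Irf4 at 189, Irf8 at 91.4, Irf9 at 72.6, Irf2 at 52.2, Irf3 at 44.9, Irf7 at 38.7 and Irf5 at 12.3 FPKM. Differences below are on the log2(FPKM + 1) scale, from limma across all 11532 tested genes with 1 mean per group; a gene is called where its Benjamini-Hochberg adjusted p is under 0.05. Between the highest and the lowest of the 10 group means, Irf8 spanned 6.18 on this log2 scale, more than 99.6% of tested genes, and Irf4 spanned 3.44, more than 95.4%. Irf2 had the smallest span, 0.81. In bulk RNA, fewer cells that express a gene and less RNA per cell cannot be told apart.

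**Figure D1:**
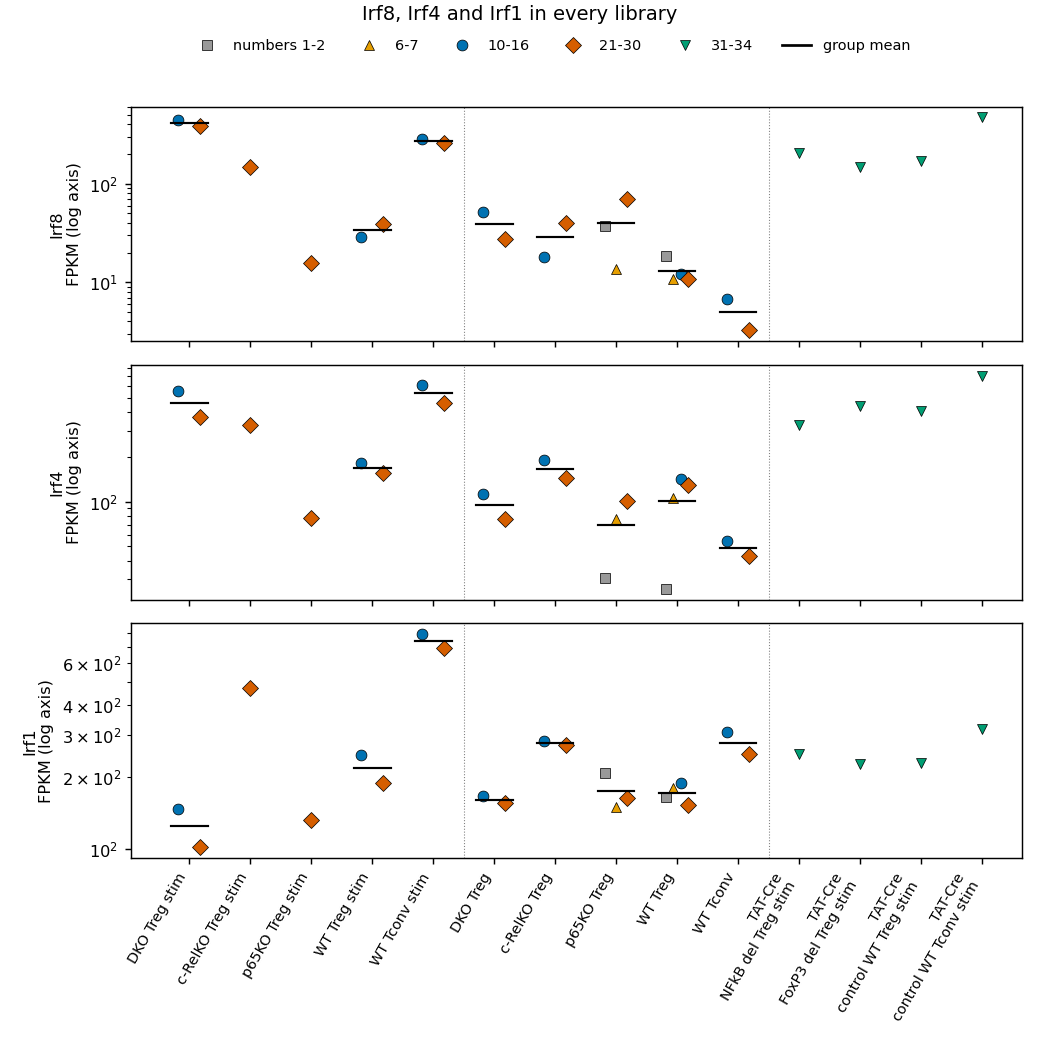
Levels of Irf8, Irf4 and Irf1 (FPKM, log axis) in each library by group, with points shaped and coloured by the run of library numbers and bars at group means where a group has at least 2 libraries. Irf8 lies at 447 and 382 FPKM in stimulated DKO Treg and at 28.9 and 39.0 FPKM in stimulated WT Treg.

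Irf8, a factor best known for the development of dendritic cells, monocytes and B cells and also induced in activated T cells, rose with stimulation in WT Tconv and in DKO Treg. In WT Tconv it had 282 and 259 FPKM with stimulation, against 6.71 and 3.24 FPKM at rest. The stimulated libraries were 42.0 and 80.1 times their resting partners in the same run. This came to a log2 difference of 5.57 ± 0.57 (SE, adjusted p = 8.49e-05, n = 2 each, limma). In DKO Treg, Irf8 had 447 and 382 FPKM with stimulation, against 51.2 and 27.3 FPKM at rest. The log2 difference was 3.10 and 3.76 within runs and 3.43 ± 0.57 in the fit (adjusted p = 0.00227, limma), and the groups did not overlap.

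In WT Treg the stimulated libraries had 28.9 and 39.0 FPKM of Irf8, against 18.4, 10.7, 12.2 and 10.7 FPKM in the resting libraries. Both stimulated libraries lay above all 4 resting ones and were 2.37 and 3.64 times their partners. The log2 difference of 1.34 ± 0.50 did not pass the test (unadjusted p = 0.0179, adjusted p = 0.698, limma), and in this comparison none of the 11532 genes did. The response of WT Treg was lower than that of WT Tconv, with a difference of -4.23 ± 0.76 on the log2 scale (interaction, adjusted p = 0.0203, limma). This call was lost when any of 5 libraries was left out (WT Treg stim replicate 1 or 2, WT Tconv stim replicate 1 or 2, or WT Tconv replicate 2), with adjusted p of 0.0581 to 0.155 and log2 differences of -4.44 to -3.80. The response of DKO Treg exceeded that of WT Treg by 2.10 ± 0.76, which did not pass (adjusted p = 0.306, limma). With the run of library numbers as a block it was 2.33 ± 0.71 and passed (adjusted p = 0.0485, limma). The call thus depends on the fit.

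Across genotypes, stimulated DKO Treg had more Irf8 than stimulated WT Treg, 447 and 382 against 28.9 and 39.0 FPKM, a log2 difference of 3.58 ± 0.57 (adjusted p = 0.000401, limma). Within runs the ratios were 15.5 and 9.81, and the groups lay far apart. Markers of other cells that carry Irf8 did not all lie alike in these groups. Summed over 11 B cell markers, levels were 4.29 and 7.83 FPKM in stimulated DKO Treg and 5.57 and 5.83 FPKM in stimulated WT Treg, and over 8 dendritic cell markers 12.1 and 10.2 against 9.55 and 13.1 FPKM; Pax5, Ebf1, Cr2, Clec9a and Flt3 were at or under 0.168 FPKM in all 4 libraries. The sum of 14 myeloid markers was 122 and 209 FPKM in DKO Treg and 56.7 and 83.2 FPKM in WT Treg, most of it from Cst3 except in DKO Treg replicate 2, where S100a8 and S100a9 added 36.2 and 37.4 FPKM. Xcr1, a dendritic cell marker, was 10.98 and 8.03 FPKM in DKO Treg and 1.51 and 0.926 FPKM in WT Treg. It made up most of the dendritic cell sum in DKO Treg but not in WT Treg. The other dendritic cell markers together were therefore lower in DKO Treg than in WT Treg. The part of other cells in the Irf8 values was not tested.

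At rest, DKO Treg had 51.2 and 27.3 FPKM of Irf8, against 10.7 to 18.4 FPKM in the 4 WT Treg libraries, a log2 difference of 1.49 ± 0.50 (adjusted p = 0.0336, limma). The groups did not overlap, but the call was lost when any 1 of 5 libraries was left out (DKO Treg replicate 1 or 2, WT Treg replicate 2, 3 or 4), with adjusted p of 0.0527 to 0.281. Resting c-RelKO Treg had 18.1 and 39.6 FPKM, the higher value in replicate 2 with its high B cell and myeloid markers, and the log2 difference from WT Treg of 1.02 ± 0.50 did not pass (adjusted p = 0.211, limma). Without WT Treg replicate 1, p65KO Treg replicate 3 and c-RelKO Treg replicate 2 it was 0.64 ± 0.48; the part of the other cells in this value was not tested. The lone library of stimulated c-RelKO Treg had 147 FPKM, above both stimulated WT Treg libraries, with a log2 difference of 2.10 ± 0.70 (adjusted p = 0.351, limma).

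Resting p65KO Treg had 36.9, 13.6 and 69.5 FPKM of Irf8 in replicates 1 to 3, each above its WT Treg partner in the same run (18.4, 10.7 and 10.7 FPKM). The highest was the replicate with the high Egr1 and S100a8. The log2 difference was 1.31 ± 0.44 (adjusted p = 0.295, limma) and 0.78 ± 0.41 without that replicate (adjusted p = 0.457). It was 0.95 ± 0.38 without the 3 libraries named above (adjusted p = 0.111), so it passed in none of these fits. The library labelled stimulated p65KO Treg had 15.5 FPKM, below both stimulated WT Treg libraries. Between WT cells, resting Treg had 10.7 to 18.4 FPKM and resting Tconv 6.71 and 3.24 FPKM, a log2 difference of 1.26 ± 0.50 (adjusted p = 0.117, limma). With the run of library numbers as a block this difference was 1.49 ± 0.49 and passed (adjusted p = 0.0258, limma). With stimulation the order turned, with 28.9 and 39.0 FPKM in WT Treg against 282 and 259 FPKM in WT Tconv, a log2 difference of -2.97 ± 0.57 (adjusted p = 0.00636, limma). Without WT Treg stim replicate 1 or WT Tconv stim replicate 1 that call was lost (adjusted p = 0.0718 and 0.0579).

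Irf4, which antigen receptor signals induce and which partners with Batf and Jun, had a smaller span of group means than Irf8. Among resting Treg groups the order differed, with the lowest mean in WT Treg for Irf8 and in p65KO Treg for Irf4. Like Irf8, Irf4 rose most with stimulation in WT Tconv and next in DKO Treg. In WT Tconv it had 614 and 462 FPKM with stimulation, against 53.9 and 42.8 FPKM at rest, 11.4 and 10.8 times within runs. The log2 difference was 3.44 ± 0.66 (adjusted p = 0.00426, limma), with a loss of the call only without WT Tconv replicate 2 among the 4 libraries left out (adjusted p = 0.0513). In DKO Treg it had 558 and 369 FPKM with stimulation, against 113 and 76.8 FPKM at rest. These were 4.94 and 4.80 times within runs, and the log2 difference was 2.27 ± 0.66 (adjusted p = 0.045, limma). This call was lost when any 1 of the 4 libraries was left out (adjusted p = 0.116 to 0.224, log2 difference 1.97 to 2.57).

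In WT Treg, Irf4 was not called with stimulation in the fit without a block, with 182 and 155 FPKM against 25.8, 105, 142 and 130.1 FPKM at rest. The low value belongs to WT Treg replicate 1, and the run partners differed by 1.29 and 1.19 times. The log2 difference was 0.99 ± 0.57 (adjusted p = 0.698, limma). With the replicate number as a block it was 1.60 ± 0.54 and passed (adjusted p = 0.0473, limma). Resting WT Treg exceeded resting WT Tconv by 2.62 and 3.04 times within runs. Over all 4 WT Treg libraries the log2 difference of 0.80 ± 0.57 did not pass (adjusted p = 0.403, limma), and without WT Treg replicate 1 it was 1.36 and passed (adjusted p = 0.0277). Likewise the difference between the responses of WT Treg and WT Tconv, -2.46 ± 0.88 with all libraries (adjusted p = 0.261, limma), was -3.01 without WT Treg replicate 1 (adjusted p = 0.0258). With the run of library numbers as a block, the resting difference was 1.45 ± 0.14 (adjusted p = 1.22e-05, limma). The difference between responses was then -3.11 ± 0.21 (adjusted p = 1.59e-05, limma).

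At rest, Irf4 was not called between any of the 3 knockout genotypes and WT Treg in the fit without a block. Resting DKO Treg had 113 and 76.8 FPKM, c-RelKO Treg 189 and 143 FPKM and p65KO Treg 30.6, 76.4 and 101 FPKM, against 25.8, 105, 142 and 130.1 FPKM in WT Treg. Log2 differences from WT Treg were 0.14 ± 0.57, 0.96 ± 0.57 and -0.44 ± 0.51 for DKO, c-RelKO and p65KO (adjusted p = 0.873, 0.318 and 0.826, limma), and their 95% intervals all include 0. Within runs, however, both DKO libraries lay below their WT Treg partners, at 0.800 and 0.590 times, and p65KO libraries were at 1.19, 0.726 and 0.776 times. Without p65KO Treg replicate 3 the p65KO difference was -0.79 (adjusted p = 0.563, limma), and without the 3 libraries named above -1.35 (adjusted p = 0.0501). With the run of library numbers as a block, the DKO difference turned to -0.51 ± 0.14 and passed (adjusted p = 0.00816, limma), so both its direction and its call depend on the block.

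With stimulation, DKO Treg had 558 and 369 FPKM of Irf4 against 182 and 155 FPKM in WT Treg, with no overlap. The log2 difference of 1.43 ± 0.66 did not pass with all libraries and no block (adjusted p = 0.116, limma). It passed without the 3 libraries named above, none of which belongs to these groups, through the smaller spread that this left (1.43 ± 0.37, adjusted p = 0.0106). With all libraries and the run of library numbers as a block it also passed (1.43 ± 0.15, adjusted p = 1.01e-05, limma), so the call depends on the fit. The lone stimulated c-RelKO Treg library had 327 FPKM, above both WT Treg libraries, and the lone one labelled stimulated p65KO Treg had 78.0 FPKM, below both. Their log2 differences, 0.96 ± 0.81 and -1.10 ± 0.81, did not pass (adjusted p = 1 and 0.565, limma). Stimulated WT Treg had less Irf4 than stimulated WT Tconv (614 and 462 FPKM) in both runs, with a log2 difference of -1.66 ± 0.66 (adjusted p = 0.165, limma; 0.0152 without the 3 libraries). With the run as a block this difference was -1.66 ± 0.15 (adjusted p = 1.18e-05, limma).

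**Figure D2:**
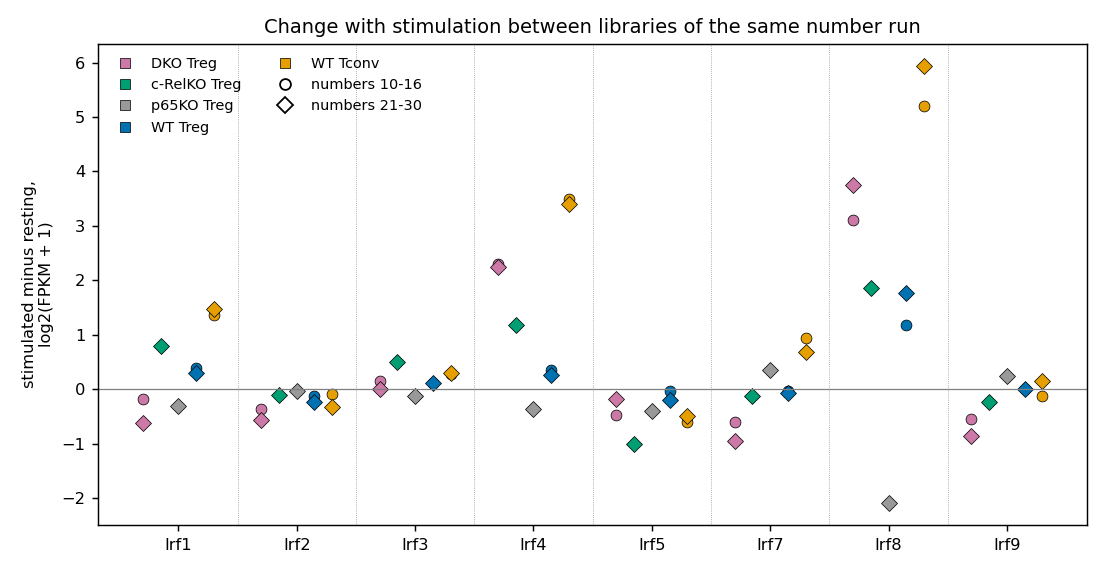
Change with stimulation, on the log2(FPKM + 1) scale, between a stimulated and a resting library of the same run of library numbers, for each member and each kind of cell. Irf8 and Irf4 rose most in WT Tconv (5.20 and 5.94, and 3.49 and 3.40) and next in DKO Treg; the p65KO pair includes the 2 libraries whose activation genes go against their labels.

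Irf1, an activator of antiviral and antigen-presentation genes, rose with stimulation in WT Tconv, to 791 and 693 FPKM against 308 and 248 FPKM at rest. The rise was 2.57 and 2.79 times within runs, a log2 difference of 1.42 ± 0.22 (adjusted p = 0.000986, limma). In WT Treg the stimulated libraries had 246 and 188 FPKM, against 164, 179, 188 and 153 FPKM at rest, which overlap, and the log2 difference of 0.34 ± 0.19 did not pass (adjusted p = 0.698, limma). In DKO Treg, Irf1 was lower with stimulation in both runs, 147 and 101 FPKM against 165 and 155 FPKM at rest. The log2 difference of -0.39 ± 0.22 did not pass (adjusted p = 0.285, limma), but passed with the run as a block (adjusted p = 0.0384, limma). The response of WT Treg differed from that of WT Tconv by -1.08 ± 0.29 (adjusted p = 0.0931, limma). This difference passed with the run or the replicate number as a block (-1.08 ± 0.19 and -1.13 ± 0.23, adjusted p = 0.00398 and 0.0134, limma).

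Stimulated DKO Treg had less Irf1 than stimulated WT Treg, 147 and 101 against 246 and 188 FPKM, a log2 difference of -0.82 ± 0.22 (adjusted p = 0.0105, limma). The call was lost without WT Treg stim replicate 1 or DKO Treg stim replicate 2 (adjusted p = 0.124 and 0.141). Stimulated WT Treg in turn had less than stimulated WT Tconv (791 and 693 FPKM), a log2 difference of -1.78 ± 0.22 (adjusted p = 0.000237, limma). At rest, WT Treg had 153 to 188 FPKM, against 308 and 248 FPKM in WT Tconv, a log2 difference of -0.69 ± 0.19 (adjusted p = 0.0272, limma). That call was lost without either WT Tconv library or without WT Treg replicate 4 (adjusted p = 0.28, 0.087 and 0.0594).

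c-Rel loss alone went with more Irf1. Resting c-RelKO Treg had 283 and 271 FPKM, against 164, 179, 188 and 153 FPKM in resting WT Treg, without overlap. The log2 difference was 0.70 ± 0.19 (adjusted p = 0.0292, limma), and the ratios within runs were 1.51 and 1.78. The call was lost without either c-RelKO library (adjusted p = 0.186 and 0.134), without WT Treg replicate 4 (0.0623) and without the 3 libraries named above (0.155), while the log2 difference was 0.65 to 0.73 in these 4 fits. Under a rescaling by size factors it was 0.90 (adjusted p = 0.0117), with a median over all genes of 0.04, against -0.13 as deposited. The lone stimulated c-RelKO Treg library had 469.5 FPKM, against 246 and 188 FPKM in WT Treg (log2 difference 1.12 ± 0.27, adjusted p = 0.0971, limma). Resting DKO Treg, at 165 and 155 FPKM, lay within the range of resting WT Treg (log2 difference -0.09 ± 0.19, adjusted p = 0.757, limma). Resting p65KO Treg had 208, 150.0 and 163 FPKM, lower than c-RelKO Treg (log2 difference -0.68 ± 0.20, adjusted p = 0.0357, limma; 0.0698 without p65KO Treg replicate 3 and 0.14 without the 3 libraries).

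Irf2, which binds many of the sites of Irf1, was called in none of the 15 comparisons of the design in the fit without a block. It had 41.6 and 38.1 FPKM in stimulated DKO Treg, against 36.8 and 41.6 FPKM in stimulated WT Treg, and 58.0 and 62.4 FPKM in stimulated WT Tconv. Resting values were 54.1 and 56.7 FPKM in DKO Treg, 40.1 to 56.7 FPKM in WT Treg and 61.5 and 78.4 FPKM in WT Tconv. The resting difference between WT Treg and WT Tconv, -0.48 ± 0.16 on the log2 scale (adjusted p = 0.0621, limma), was just short of the threshold and passed without WT Treg replicate 1 (-0.54, adjusted p = 0.0305). With the run as a block this difference was -0.60 ± 0.11 and passed (adjusted p = 0.00112, limma).

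**Figure D3:**
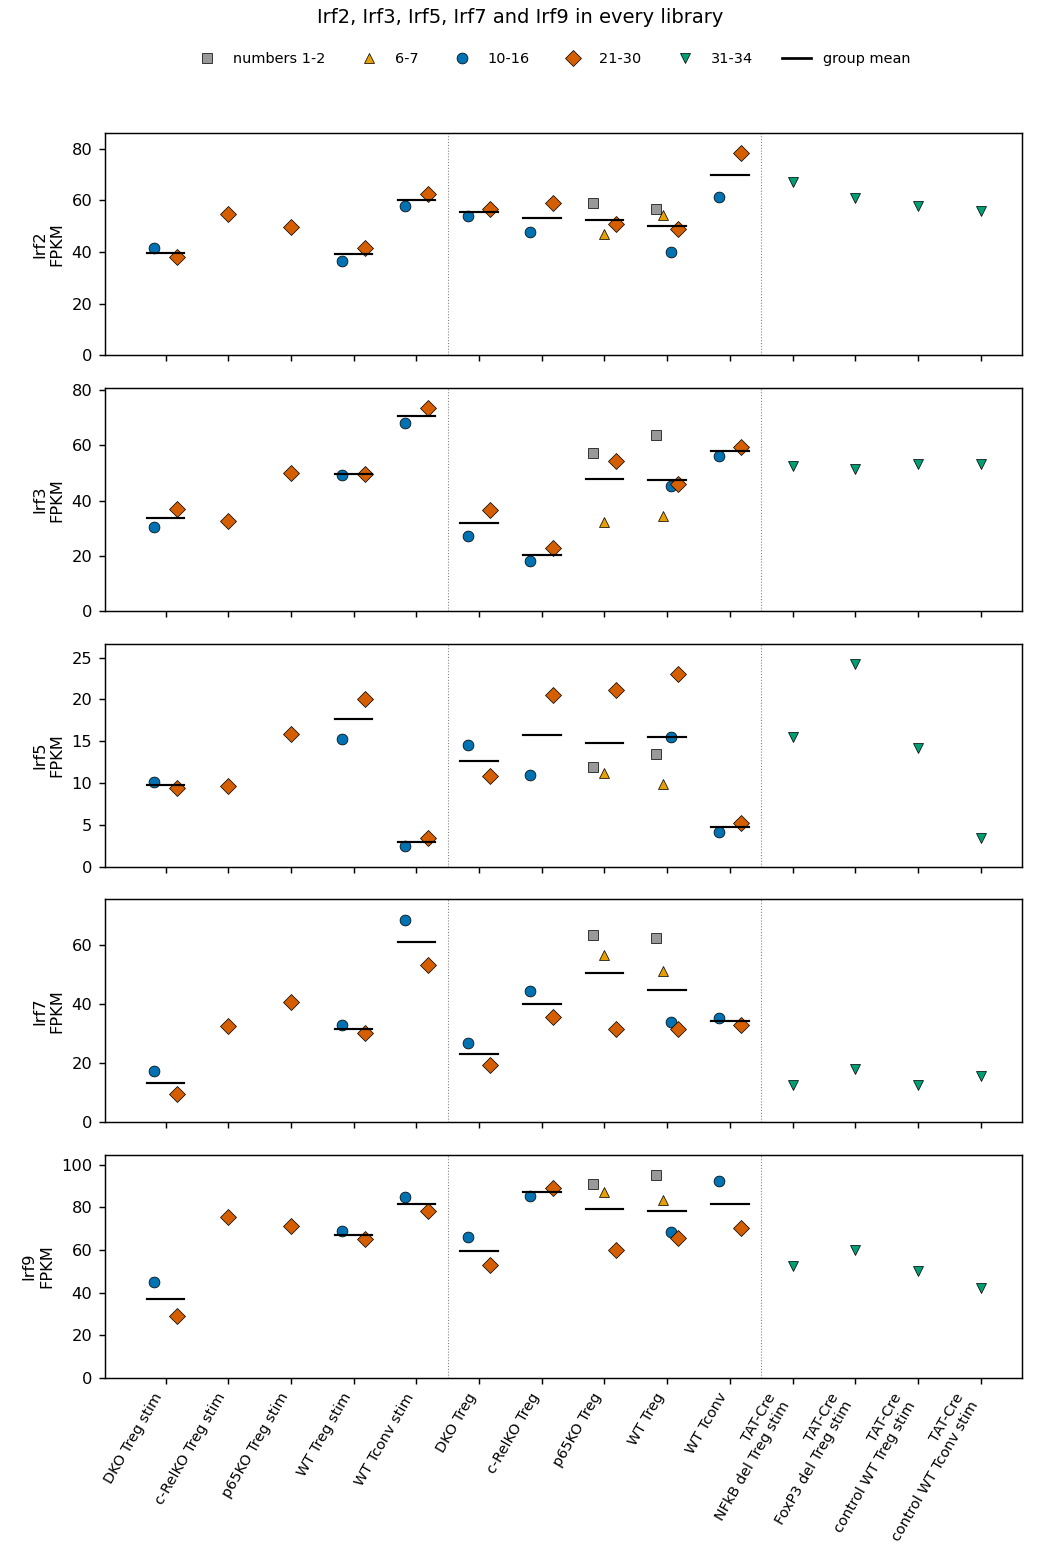
Levels of Irf2, Irf3, Irf5, Irf7 and Irf9 (FPKM, linear axes from 0) in each library by group, drawn as for Irf8, Irf4 and Irf1. Irf5 lies at 2.43 to 5.21 FPKM in the 4 WT Tconv libraries and at 9.41 FPKM or more in every Treg library outside the TAT-Cre set.

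Irf3 and Irf7, the factors that turn on type I interferon genes, differed in which knockouts they were lower in the fit without a block. There, Irf3 was called lower in c-RelKO Treg at rest, and Irf7 in DKO Treg. Irf3 had 18.2 and 22.7 FPKM in resting c-RelKO Treg, against 63.7, 34.6, 45.3 and 45.9 FPKM in resting WT Treg. The groups did not overlap and the log2 difference was -1.15 ± 0.24 (adjusted p = 0.00814, limma), which is far below the median over all tested genes in this comparison, -0.13. Without c-RelKO Treg replicate 1 it was -0.99 and did not pass (adjusted p = 0.111), and after rescaling by size factors it was -0.95 (adjusted p = 0.0136). Resting DKO Treg had 27.2 and 36.6 FPKM of Irf3, below both WT Treg partners in their runs, with a log2 difference of -0.54 ± 0.24 (adjusted p = 0.104, limma). With the run as a block this difference was -0.57 ± 0.11 and passed (adjusted p = 0.000833, limma). Resting p65KO Treg, at 57.3, 32.3 and 54.3 FPKM, exceeded c-RelKO Treg by 1.16 ± 0.25 (adjusted p = 0.0112, limma; 0.104 without c-RelKO Treg replicate 1 and 0.0317 without p65KO Treg replicate 3), against a median of 0.27 over all genes. With stimulation, Irf3 was 30.3 and 36.9 FPKM in DKO Treg and 32.7 FPKM in c-RelKO Treg, against 49.2 and 49.7 FPKM in WT Treg. Neither difference passed without a block (adjusted p = 0.147 for DKO, limma). With the run as a block the DKO difference was -0.55 ± 0.12 and passed (adjusted p = 0.00148, limma).

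Irf7, itself an interferon-induced gene, had 17.4 and 9.50 FPKM in stimulated DKO Treg, against 33.1 and 30.3 FPKM in stimulated WT Treg. The log2 difference was -1.23 ± 0.37 (adjusted p = 0.0205, limma), with the call lost without either WT Treg stim library or DKO Treg stim replicate 2 (adjusted p = 0.0641 to 0.208). At rest, DKO Treg had 26.9 and 19.4 FPKM, against 62.6, 51.2, 33.9 and 31.7 FPKM in WT Treg, a log2 difference of -0.89 ± 0.32 (adjusted p = 0.0469, limma). The 2 higher WT Treg values belong to runs with no DKO library; within the shared runs the ratios were 0.795 and 0.613, and the call was lost without DKO Treg replicate 1 or 2 or WT Treg replicate 1 or 2 (adjusted p = 0.0819 to 0.306). In c-RelKO Treg, Irf7 was not lower than in the WT Treg partners, at 44.7 and 35.7 FPKM against 33.9 and 31.7 FPKM at rest, and at 32.7 FPKM against 33.1 and 30.3 FPKM with stimulation. Over all resting libraries the mean was 40.2 FPKM in c-RelKO Treg and 44.8 FPKM in WT Treg. With the replicate number as a block the resting log2 difference was -0.52 ± 0.16 and passed (adjusted p = 0.028, limma), so its direction and call depend on the fit. In WT Tconv, Irf7 had 68.7 and 53.5 FPKM with stimulation against 35.5 and 32.9 FPKM at rest, 1.94 and 1.62 times within runs. The log2 difference of 0.81 ± 0.37 did not pass without a block (adjusted p = 0.187, limma). It passed with the run or the replicate number as a block (SE 0.15 and 0.16, adjusted p = 0.00112 and 0.00555, limma).

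Irf5, a mediator of Toll-like receptor signals through Myd88 that is best known from myeloid and B cells, set Treg apart from Tconv. It had 13.5, 9.84, 15.6 and 23.1 FPKM in resting WT Treg, against 4.19 and 5.21 FPKM in resting WT Tconv. The groups did not overlap, and the log2 difference was 1.48 ± 0.32 (adjusted p = 0.0087, limma; 0.11 and 0.0652 without WT Tconv replicate 1 or 2). With stimulation the values were 15.2 and 20.0 FPKM in WT Treg against 2.43 and 3.43 FPKM in WT Tconv, a log2 difference of 2.24 ± 0.37 (adjusted p = 0.00237, limma). Summed B cell markers were 5.57 and 5.83 FPKM in these WT Treg libraries and 3.82 and 2.88 FPKM in these WT Tconv libraries. The myeloid sums given above for these WT Treg libraries were larger than their B cell sums. Myeloid sums of the WT Tconv libraries are not given here, so the 2 cell types are not compared on them. The part of other cells in the Irf5 values was not tested. Irf5 was 10.1 and 9.41 FPKM in stimulated DKO Treg, below both stimulated WT Treg libraries, a log2 difference of -0.78 ± 0.37 (adjusted p = 0.126, limma). This difference passed with the run or the replicate number as a block (SE 0.23 and 0.28, adjusted p = 0.0107 and 0.0411, limma). Among resting Treg, p65KO (11.97, 11.2 and 21.1 FPKM), c-RelKO (10.9 and 20.6 FPKM) and DKO (14.5 and 10.9 FPKM) libraries overlapped WT.

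Irf9, the DNA-binding partner of Stat2, was lower in stimulated DKO Treg. There it had 44.8 and 28.8 FPKM, against 68.7 and 65.3 FPKM in stimulated WT Treg, a log2 difference of -0.88 ± 0.25 (adjusted p = 0.0152, limma). The call was lost without either WT Treg stim library (adjusted p = 0.0895 and 0.0545) or DKO Treg stim replicate 2 (0.182). Resting DKO Treg had 66.1 and 53.1 FPKM, so stimulation went with a log2 difference of -0.71 ± 0.25 that did not pass (adjusted p = 0.092, limma). It passed with the run or the replicate number as a block (SE 0.14 and 0.16, adjusted p = 0.00184 and 0.0109, limma). WT Treg had 94.9, 83.3, 68.3 and 65.6 FPKM at rest, and the stimulated libraries were at 1.01 and 0.996 times their partners. WT Tconv had 84.7 and 78.3 FPKM with stimulation and 92.5 and 70.2 FPKM at rest.

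**Figure D4:**
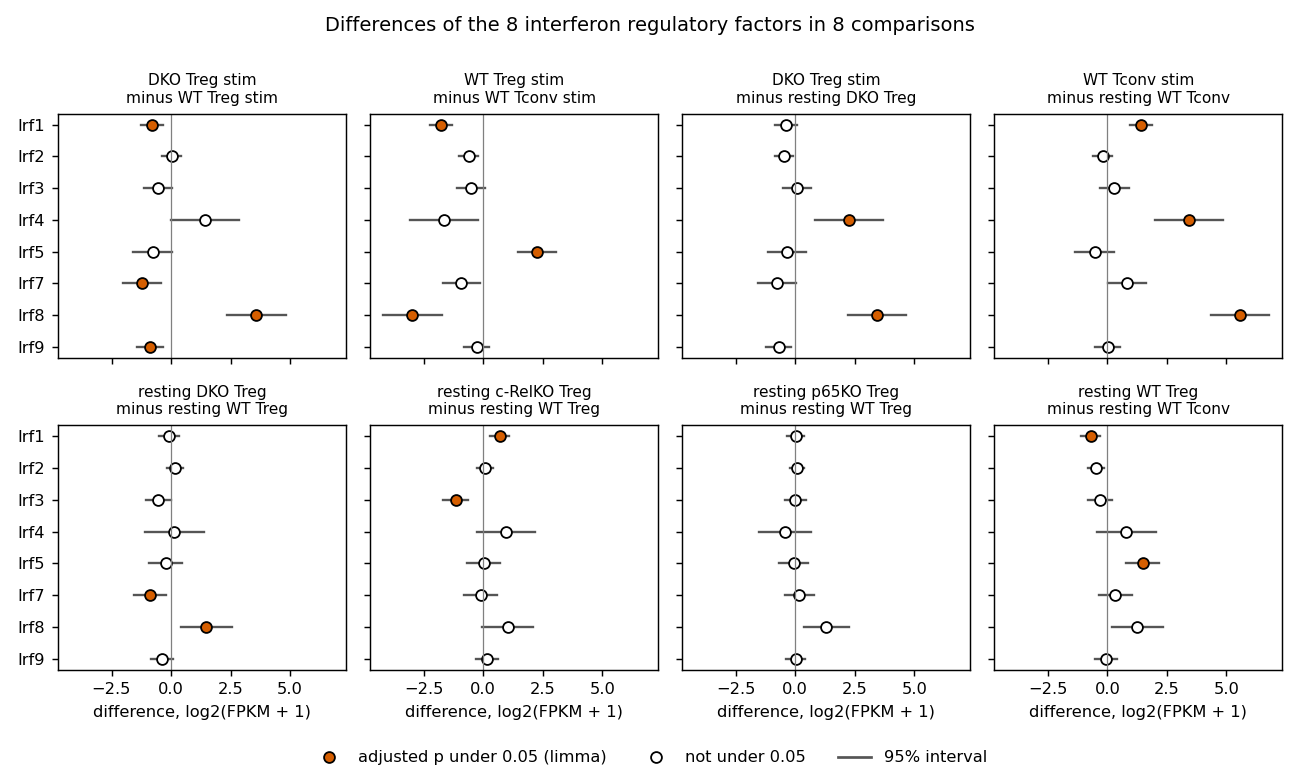
Log2 differences (FPKM + 1) of the 8 members with 95% intervals in 8 comparisons of the design, filled where the limma adjusted p is under 0.05. Irf8 is the farthest from 0 in both comparisons of stimulated with resting cells shown and in stimulated DKO against WT Treg (3.58), where Irf1, Irf7 and Irf9 lie below 0.

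Counted over the 15 comparisons of the design, between 0 and 4 of the 8 members were called. Stimulated DKO Treg against stimulated WT Treg gave 4 of 8 members (Irf8 higher, Irf1, Irf7 and Irf9 lower), where 32.7% of all tested genes were called, and resting DKO against resting WT Treg gave 2 of 8 against 33% of all genes; both shares lie near the background. In c-RelKO against WT Treg at rest it was 2 of 8 (Irf1 higher, Irf3 lower) against 10.6%, and under a rescaling by size factors the calls over all genes split 389 higher and 696 lower, against 187 higher and 1036 lower as deposited. In resting p65KO against c-RelKO Treg it was 2 of 8 against 14.1%, with a split of 561 higher and 357 lower after rescaling, against 1437 and 188. Resting p65KO against WT Treg gave 0 of 8 against 0.0434%, with 1 member at an unadjusted p under 0.05. Stimulated against resting cells gave 3 of 8 in WT Tconv against 11.9%, 0 of 8 in WT Treg against 0% (1 member and 311 genes at an unadjusted p under 0.05), and 2 of 8 in DKO Treg against 9.99% (445 genes higher and 707 lower, or 610 and 392 after rescaling). WT Treg against WT Tconv gave 2 of 8 at rest against 12.6%, and 3 of 8 with stimulation against 6.64%.

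Comparisons with a lone stimulated library of 1 genotype gave no call among the members, 0 of 8 in p65KO Treg against 1.01% of genes (1 member at an unadjusted p under 0.05; 75 genes higher and 42 lower, or 113 and 122 after rescaling), and 0 of 8 in c-RelKO Treg against 0.347% (2 members). The difference between the WT Treg and WT Tconv responses gave 1 of 8 against 1.03%. The difference between the DKO and WT Treg responses gave 0 of 8 against 0.971% (2 members at an unadjusted p under 0.05; 85 genes higher and 27 lower, or 105 and 11 after rescaling), and the departure of DKO from the sum of the p65KO and c-RelKO changes at rest gave 0 of 8 against 1.91% (1 member). In comparisons added after the values were seen, stimulated DKO Treg against stimulated WT Tconv gave 6 of 8 against 31.9%, and the difference between the DKO Treg and WT Tconv responses gave 1 of 8 against 0.598% (36 genes higher and 33 lower, or 41 and 23 after rescaling). Comparisons that share libraries are not independent of each other.

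Among partners of the IRFs, Batf was higher and Stat2 lower in stimulated DKO Treg. Of 14 partner and cofactor genes, 12 were found and 11 tested, and against stimulated WT Treg 2 were higher, 4 lower and 5 not called (32.7% of all tested genes were called), with a median log2 difference of -0.35 beside -0.00018 over all genes. Batf, the basic leucine zipper protein that binds DNA with Irf4 and Irf8, averaged 412 FPKM in stimulated DKO Treg and 67.1 FPKM in stimulated WT Treg, a log2 difference of 2.61 ± 0.21 (adjusted p = 1.93e-06, n = 2 each, limma). Resting DKO Treg averaged 145 FPKM, so Batf rose with stimulation there by 1.49 ± 0.21 (adjusted p = 0.000641, limma), and this response exceeded that of WT Treg by 1.71 ± 0.28 (adjusted p = 0.00749, limma). Batf3 averaged 3.31 FPKM in stimulated DKO Treg and was listed at 0 in both WT Treg libraries. Stat2, which forms the interferon complex with Irf9, averaged 11.8 FPKM in stimulated DKO Treg and 33.1 FPKM in stimulated WT Treg (log2 difference -1.43 ± 0.17, adjusted p = 5.62e-05, limma), in the same direction as Irf9. At rest 2 partners were higher and 2 lower in DKO than in WT Treg (33% of all genes called), among them Batf (0.90 ± 0.18) and Jun (-2.60 ± 0.56). In resting c-RelKO Treg, where 10.6% of all genes were called, 1 was higher (Batf3) and 1 lower (Stat2, -0.73 ± 0.15, adjusted p = 0.00712), beside the lower Irf3.

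Of the kinases, adaptors and sensors that activate IRFs, 17 of 18 were tested. In stimulated DKO against WT Treg 3 were higher and 2 lower, a share near the 32.7% of all genes called. Ikbke, a kinase of Irf3 and Irf7, averaged 10.8 FPKM in DKO and 54.2 FPKM in WT Treg (log2 difference -2.23 ± 0.40, adjusted p = 0.000957, limma), and Ifih1, a sensor of double-stranded RNA, 49.7 and 6.05 FPKM (2.85 ± 0.40, adjusted p = 0.000145). At rest 2 were higher and 5 lower in DKO Treg (33% of all genes called), and 0 higher and 4 lower in c-RelKO Treg (10.6%). Ikbke was among the lower in both, with means of 23.6 FPKM in DKO, 22.02 FPKM in c-RelKO and 86.8 FPKM in WT Treg. In WT Tconv, stimulation raised Myd88, the adaptor upstream of Irf5 and Irf7, to 83.5 FPKM against 40.5 FPKM at rest, and Ifih1 to 19.2 against 5.30 FPKM; these were the 2 called of 17, where 11.9% of all genes were called.

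Of 7 tested genes of interferon receptors, Janus kinases and interferon-gamma itself, stimulated DKO Treg had 1 higher and 5 lower than stimulated WT Treg, where 32.7% of all genes were called. The higher one was Ifng, the cytokine that induces Irf1, at a mean of 10611 FPKM in DKO Treg and 10.1 FPKM in WT Treg (log2 difference 9.77 ± 0.72, adjusted p = 1.03e-06, limma). Among the lower ones, the receptor chain Ifngr2 averaged 6.96 FPKM in DKO Treg and 85.7 FPKM in WT Treg, and Ifnar1, a chain of the type I receptor, 10.97 and 49.0 FPKM (log2 differences -3.43 ± 0.51 and -2.08 ± 0.24, adjusted p = 0.000237 and 3.27e-05, limma). Irf1 lay lower in the same libraries. At rest the list gave 1 higher and 2 lower in DKO Treg (33% of all genes called), with Ifng at 34.3 against 5.41 FPKM. It gave 1 higher and 1 lower in c-RelKO Treg (10.6%), with Ifng at 35.5 against 5.41 FPKM (2.34 ± 0.62, adjusted p = 0.0276, limma), where Irf1 was higher.

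Of interferon-induced genes, 25 of 26 were tested. In stimulated DKO against WT Treg 2 were higher and none lower, where 32.7% of all genes were called, with a median log2 difference of 0.11: Cxcl9 at 3.31 and 0.245 FPKM, and Gbp2, a guanylate-binding protein gene, at 270.1 and 82.7 FPKM. At rest 5 were higher and 3 lower in DKO Treg, a share near the 33% of all genes, and 1 higher in c-RelKO Treg (Rsad2), against 10.6%. With stimulation in WT Tconv 6 were higher and none lower, against 11.9% of all genes, with a median of 0.81, among them Socs1, a brake on cytokine signals, at 386 FPKM against 22.7 FPKM at rest, and Gbp2 at 564 against 102 FPKM. The responses of Socs1 and Gbp2 were lower in WT Treg than in WT Tconv, with log2 differences of -3.39 and -2.39 (adjusted p = 0.0308 and 0.0496, limma), alongside that of Irf8.

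Effector genes of T cells linked to Irf4 (18 tested) were 7 higher and 1 lower in stimulated DKO than in stimulated WT Treg, against 32.7% of all genes called, with a median of 0.89. Prdm1, which encodes Blimp-1, averaged 61.7 FPKM in DKO Treg and 6.81 FPKM in WT Treg (3.00 ± 0.26, adjusted p = 3.66e-06, limma), and the cytokine gene Il21 199 and 0.410 FPKM. At rest 6 were higher and 2 lower in DKO Treg, against 33% of all genes, with Il5 at 326 against 0.547 FPKM and Ccr6 at 2.38 against 27.2 FPKM. Resting WT Treg had 11 higher and none lower than WT Tconv, against 12.6% of all genes, with Maf at 61.9 against 10.96 FPKM. These values stand beside the Treg marker Foxp3, which was 6.34 and 8.31 FPKM in the stimulated DKO Treg libraries and 336 and 295 FPKM in the stimulated WT Treg libraries; whether a change in the makeup of the cells takes part in the IRF values was not tested.

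Likeness of pattern was taken as Pearson's r between the 10 group means of a member and of each of 3013 candidate genes (SD of group means of at least 0.5 on the log2 scale and a highest group mean of at least 5 FPKM), a description over 10 points that share libraries. For Irf8 the most alike were Mtap, St6galnac4 and Ccdc86 (r = 0.98 each), and for Irf4 Grwd1, Sult2b1 and Gtpbp4 (0.96 each). For Irf1 they were Slc30a4 (0.94), Irgm2, an interferon-inducible GTPase gene (0.91), and Ddr1 (0.86), and for Irf2 Ifit2 (0.87), Ifit3 (0.86) and Zfp652 (0.86). For Irf3 they were Zfp653, Ttc14 and Golga1 (0.95 to 0.96), for Irf5 Zcchc18, Pcyt1a and Cyfip1 (0.96 to 0.97), for Irf7 Treml2, Id3 and P2rx4 (0.92 to 0.96), and for Irf9 Itga6, Rgs10 and Ltb (0.93 to 0.96).

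In the TAT-Cre set there was 1 library per group, so there is no test, and levels are given side by side. Irf8 was 203 FPKM in Treg labelled NFkB del and 148 FPKM in Treg labelled FoxP3 del, against 169 FPKM in the WT Treg control; the WT Tconv control had 473 FPKM. Irf4 was 327 and 438 FPKM in the NFkB del and FoxP3 del libraries, against 408 FPKM in the WT Treg control and 705 FPKM in the WT Tconv control. For both genes the WT Tconv control stood above the 3 Treg libraries, as stimulated WT Tconv did above stimulated WT Treg among the other libraries. The WT Treg control itself lay above the other stimulated WT Treg libraries, which had 28.9 and 39.0 FPKM of Irf8 and 182 and 155 FPKM of Irf4. Beside stimulated DKO Treg, stimulated WT Tconv had less Irf8. It had more Irf4 than stimulated DKO Treg within each run (614 against 558 and 462 against 369 FPKM). Irf1 was 249 and 225 FPKM, against 227 and 317 FPKM in the 2 controls, and Irf5 15.6 and 24.2 FPKM, against 14.1 and 3.47 FPKM. Beside the WT Treg control, the NFkB del library thus had more Irf8 and Irf1 and less Irf4. Stimulated DKO Treg, by contrast, had more Irf8 and Irf4 and less Irf1 than stimulated WT Treg. Rel was 38.7 FPKM in the NFkB del library and 171 FPKM in the WT Treg control, and Rela 124 and 125 FPKM. Irf2, Irf3, Irf7 and Irf9 lay between 12.6 and 67.2 FPKM in all 4 libraries.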

How the data were processed

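The authors deposited gene-level FPKM with confidence bounds, 1 table per library. bcl2fastq, TopHat and Cufflinks and the build mm9 are named, per the submitters' processing notes, without versions; annotation and strand are not stated there. The tables hold no counts, so depth was inferred from the bounds (15.4 to 52.8 M fragments). From them, 250 symbols with any entry not marked OK were left out and the entries of 181 symbols summed. log2(FPKM + 1) was fitted with limma 3.58.1 (R 4.3.3, trend) over 21 libraries in 10 groups, with 11 residual degrees of freedom, and adjusted over 11532 genes; groups of 1 library are assumed to vary like the others. The procedure was tested on simulated data in which libraries varied independently. That test does not cover the likeness within runs that is described below. Nothing says that replicates came from separate animals, so p-values measure the spread between libraries. Members, lists, tests and the rule for named genes (members, Rela, Rel and Foxp3, up to 3 genes per list by smallest p, 3 most alike genes per member) were chosen with earlier results of these data known; activation genes and the 3 libraries left out were chosen after values were seen. Spi1, Irf2bpl and Jak2 were sought and not found. Sequences are from RefSeq.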

Additional observations from a re-analysis of the deposited data

Results flagged for a closer look

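Irf8 differed in its response to stimulation between the 2 WT cell types: the response of WT Treg minus that of WT Tconv was -4.23 on the log2 scale (SE 0.76, adjusted p = 0.0203, limma), with 28.9 and 39.0 against 282 and 259 FPKM after stimulation. This call was lost without any 1 of 5 libraries (adjusted p = 0.0581 to 0.155) and without the filter on low values (0.0567). Irf1 was lower with stimulation in 2 of 2 DKO Treg run pairs, a change not called without a block (log2 difference -0.39, adjusted p = 0.285, limma). With the run as a block that change was called (adjusted p = 0.0384, limma). Irf1 was higher in 2 of 2 WT Tconv pairs, a change that was called (1.42, adjusted p = 0.000986, limma). The DKO Treg response minus the WT Tconv response was -1.81 (SE 0.31, adjusted p = 0.0106, limma), a comparison added after the values were seen, in which 1 of 8 members and 0.598% of all genes were called. Without DKO Treg replicate 1, DKO Treg stim replicate 2, WT Tconv replicate 2 or WT Tconv stim replicate 1 this call was lost (adjusted p = 0.0619 to 0.0845).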

How the results depend on the processing

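Few libraries per group limit these results, as do groups of 1 library and runs of library numbers that hold different groups. Deviations from group means correlated at r = 0.22 on average between libraries with the same replicate number (57 pairs, lowest -0.50) and at 0.43 within a run (51 pairs, lowest 0.0357). The main fit takes no account of this likeness within runs. The numbers do not pair every library and the labels do not call the runs batches. Fits with a block are given as alternatives. With the run as a replicate block, the members called numbered 5 in Treg against Tconv at rest, 6 in resting DKO against WT Treg, 4 in resting p65KO against c-RelKO Treg, 5 in the resting departure of DKO from the sum, 6 in DKO Treg stim against rest, 7 in Treg against Tconv after stimulation, 7 in stimulated DKO against WT Treg, 2 and 3 in stimulated p65KO and c-RelKO against WT Treg, 4 in the difference between the Treg and Tconv responses and 5 in that between the DKO and WT Treg responses. Under it Irf4 had a log2 difference of -0.51 in resting DKO against WT Treg (adjusted p = 0.00816, limma), where it was 0.14 without the block; the cause was not tested. With the run block, calls over all genes rose too in the comparisons listed below. Whether the members rose more or less than all genes did was not tested. Where no count over all genes is listed below, a count of members has no background share beside it. Such a count is not read as a result about the members, here or in the next paragraph. With the replicate number as a block, the members called were 4 in resting c-RelKO against WT Treg, 4 in p65KO against c-RelKO Treg, 2 in WT Treg stim against rest, 4 in DKO Treg stim against rest, 5 in Treg against Tconv after stimulation, 1 in stimulated p65KO against WT Treg and 3 in the difference between the Treg and Tconv responses.

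Without a filter on low values the members called were 0 in resting DKO against WT Treg, 1 in p65KO against c-RelKO Treg, 1 in DKO Treg stim against rest and 0 in the difference between the Treg and Tconv responses; with size factors they were 1 in DKO Treg stim against rest. Size factors also added calls of Irf2 in Treg against Tconv at rest (adjusted p = 0.0315) and after stimulation (0.0452) and of Irf3 in resting DKO against WT Treg (0.0417). Without the 3 libraries (chosen after seeing the data) they were 4 in Treg against Tconv at rest, 1 in resting c-RelKO against WT Treg, 5 in Treg against Tconv after stimulation and 2 in the difference between the Treg and Tconv responses. Leaving out 1 library at a time gave 0 to 4 members in Treg against Tconv at rest, 0 to 2 in resting c-RelKO and 0 to 1 in resting DKO against WT Treg, 0 to 2 in p65KO against c-RelKO Treg, 2 to 3 in Tconv stim against rest, 1 to 2 in DKO Treg stim against rest, 2 to 3 in Treg against Tconv after stimulation, 1 to 4 in stimulated DKO against WT Treg and 0 to 2 in the difference between the Treg and Tconv responses. A pseudocount of 0.1 changed no call of a member in the 15 comparisons.

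Over all genes, the run block gave 5287 calls in Treg against Tconv at rest (1449 without it), 1017 in resting p65KO (5), 4803 in resting c-RelKO (1223) and 7062 in resting DKO (3803) against WT Treg, 4966 in Tconv stim against rest (1367), 4851 in DKO Treg stim against rest (1152), 4270 in Treg against Tconv after stimulation (766) and 7230 in stimulated DKO against WT Treg (3774). The replicate-number block gave 3119 in WT Treg stim against rest (0 without it). Without the 3 libraries there were 490 calls in resting p65KO against WT Treg, and 0 with a pseudocount of 0.1 or size factors. They were 597 in resting c-RelKO against WT Treg and 1069 in p65KO against c-RelKO Treg (918 with size factors, 1625 as deposited). Leaving out 1 library gave as few as 407 in Tconv stim against rest, 238 in DKO Treg stim against rest, 273 in Treg against Tconv after stimulation, 1903 in stimulated DKO against WT Treg and 7 in the difference between the Treg and Tconv responses (119).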

Other observations

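Between stimulated DKO Treg and stimulated WT Tconv, a comparison added after the values were seen, Irf8 and Irf4 were the members not called. Irf8 was 447 and 382 FPKM in stimulated DKO Treg and 282 and 259 FPKM in stimulated WT Tconv (log2 difference 0.61 ± 0.57, 95% interval -0.62 to 1.84, adjusted p = 0.462, limma). Irf4 was 558 and 369 against 614 and 462 FPKM (-0.23 ± 0.66, interval -1.65 to 1.19, adjusted p = 0.841). The intervals are wide, so these values do not show equal levels. The other 6 members were called, where 31.9% of all genes were: Irf1, Irf2, Irf3, Irf7 and Irf9 were lower in DKO Treg and Irf5 was higher. The largest was Irf1, at 147 and 101 against 791 and 693 FPKM (-2.59 ± 0.22, adjusted p = 1.82e-06), followed by Irf7 (-2.15 ± 0.37, adjusted p = 0.000571), Irf5 (1.47 ± 0.37, adjusted p = 0.00839), Irf9 (-1.16 ± 0.25, adjusted p = 0.00286), Irf3 (-1.06 ± 0.28, adjusted p = 0.0102) and Irf2 (-0.58 ± 0.18, adjusted p = 0.0247). Leaving out 1 library ended the call of Irf2 (each of the 4), Irf3 (DKO Treg stim replicate 1 or WT Tconv stim replicate 2) and Irf5 (WT Tconv stim replicate 1).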
